A study of Mus musculus with 16 samples.

Results

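The genes described here are 4 cation-chloride cotransporters, Slc12a2, Slc12a4, Slc12a7 and Slc12a9, and 3 kinases that act on this family, Wnk1, Stk39 and Oxsr1. These 7 genes were taken by name from the 24116 genes of the count table, and all 7 were among the 13790 genes with enough counts to be tested. The set was selected on the measured Slc12a7 counts, for a rise from WT to CKO in the cDC2 subsets only. The Slc12a7 values are therefore given as a description without a test, and tests are given for the other 6 genes. Standard errors (SE) were derived from the F statistics of the fit, so those of Slc12a7 lend its differences no support.

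RNA came from dendritic cells sorted from mouse spleen, as 16 RNA-seq libraries in 8 groups of 2. The groups were CKO and WT cells of the subsets labelled Dec205, pDC, Esamlo and Esamhi, and the study's design text describes the mutant cells as deficient in the transcription factor Etv6. The deleted allele, the Cre driver, strain, age and sex are not named in the labels. Nor do they say if each library is a separate animal, so p-values measure the spread between libraries, which may be technical. Dec205 is a surface receptor of classical dendritic cells type 1 (cDC1), pDC are plasmacytoid dendritic cells, and Esamlo and Esamhi are classical dendritic cells type 2 (cDC2) with low and high ESAM.

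Members of the Slc12 family carry chloride across the plasma membrane together with sodium or potassium, and so set the chloride content and the volume of a cell. Slc12a2 (NKCC1) brings sodium, potassium and chloride in, whereas the K-Cl cotransporters, among them Slc12a4 (KCC1) and Slc12a7 (KCC4), let potassium and chloride out. Wnk1 senses chloride and osmotic stress and activates Stk39 (SPAK) and Oxsr1 (OSR1), which phosphorylate both arms, activating Slc12a2 and inhibiting the K-Cl cotransporters.

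Totals were 14434287 to 20709265 counts per library, and 3 counts corresponded to 0.143 to 0.228 CPM, the counts scaled to a common library size. Such floors cover counting error only. The subset labels were checked against markers. The 10 pDC markers summed to 14647 to 16432 CPM in pDC libraries and to at most 697 CPM elsewhere. The 10 cDC1 markers summed to 7893 to 9212 CPM in Dec205 and to 894 to 1234 CPM in cDC2, but also to 6904 to 7242 CPM in pDC, so this list did not separate Dec205 from pDC. The 10 cDC2 markers summed to 3308 to 3815 CPM in the Esamlo and Esamhi libraries, 1919 to 2017 CPM in pDC and 143 to 192 CPM in Dec205. Etv6 itself was called lower in Dec205 CKO than in Dec205 WT (log2 fold change -0.75, adjusted p = 0.000996) and not in pDC, Esamlo or Esamhi, where the log2 fold changes were -0.03, -0.36 and -0.19 (adjusted p = 1, 0.255 and 0.812). The counts sum over the whole gene, so they do not show whether a deleted exon is missing. In every subset Xist was at 113.9 CPM or more in CKO and at 1.44 CPM or less in WT, and Ddx3y was at 1.95 CPM or less in CKO and at 104.5 CPM or more in WT. Genotype and sex therefore cannot be told apart in any comparison of CKO with WT, although none of the 7 genes lies on the X or Y chromosome.

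Slc12a7 lies on chromosome 13 (GRCm38.p6, 73733052 to 73816754). Etv6 is an ETS factor, and ETS factors bind a GGAA core, so the 250 bases before an annotated Slc12a7 start are shown with each GGAA on either strand in capitals. The sequence is RefSeq's, plus strand, chr13:73763410-73763659, and the start that follows it lies inside the gene's annotated span.
Slc12a7 promoter: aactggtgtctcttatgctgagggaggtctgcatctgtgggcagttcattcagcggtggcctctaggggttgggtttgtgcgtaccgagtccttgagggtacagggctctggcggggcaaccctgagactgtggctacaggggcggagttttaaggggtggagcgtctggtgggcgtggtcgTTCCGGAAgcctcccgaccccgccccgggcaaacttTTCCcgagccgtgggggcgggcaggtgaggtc
There were 3 GGAA matches, at -68, -64 and -32 from the start. The first and second adjoin in the palindrome in capitals, and each of them reads CCGGAA on its own strand, a longer form that was searched only after the sequence had been read. In 21759 RefSeq promoter windows of the same kind, the 250 bases before the start held GGAA in 93.2% and CCGGAA in 15.0%. In the 300-base windows of the other members, Wnk1 had 7 GGAA matches, Slc12a4 and Oxsr1 had 5 each, Stk39 had 4 and Slc12a9 had 2. Of these, Oxsr1 had 1 CCGGAA and Slc12a4, Slc12a9, Stk39 and Wnk1 had 0. The Slc12a2 window was not used here.

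Slc12a7 was far higher in CKO than in WT in both cDC2 subsets. In Esamhi it was at 158 and 149 CPM in the 2 CKO libraries (2323 and 2646 counts), against 7.24 and 3.74 CPM in the 2 WT libraries (136 and 72 counts). The groups averaged 153 ± 5.999 CPM in Esamhi CKO and 5.49 ± 2.48 CPM in Esamhi WT (SD, n = 2 each), a 27.9-fold difference (log2 4.80, SE 0.37). In Esamlo it was at 91.7 and 79.5 CPM in CKO, against 8.81 and 11.3 CPM in WT. The log2 difference in Esamlo was 3.09 (SE 0.34), or 8.53-fold. The 4 cDC2 CKO libraries thus lay above every other library, and the highest value elsewhere was 50.02 CPM in a Dec205 WT library.

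In the other subsets the Slc12a7 groups overlapped or lay close together. Dec205 had 27.7 and 47.3 CPM in CKO, against 50.02 and 45.8 CPM in WT (log2 difference -0.36, SE 0.31). pDC had 14.6 and 16.3 CPM in CKO, against 10.04 and 18.1 CPM in WT (log2 difference 0.13, SE 0.32), a sign that turned without 1 pDC WT library (-0.23). Among WT libraries the order of Slc12a7 was Dec205, pDC, Esamlo and Esamhi, with means of 47.9 ± 2.99, 14.1 ± 5.73, 10.05 ± 1.75 and 5.49 ± 2.48 CPM (SD, n = 2 each). The ranges of pDC and Esamlo overlapped, and those of the other neighbours in the order did not. In CKO the order was Esamhi, Esamlo, Dec205 and pDC, with means of 153 ± 5.999, 85.6 ± 8.64, 37.5 ± 13.8 and 15.5 ± 1.24 CPM, so Esamhi was the lowest subset in WT and the highest in CKO.

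**Figure D1:**
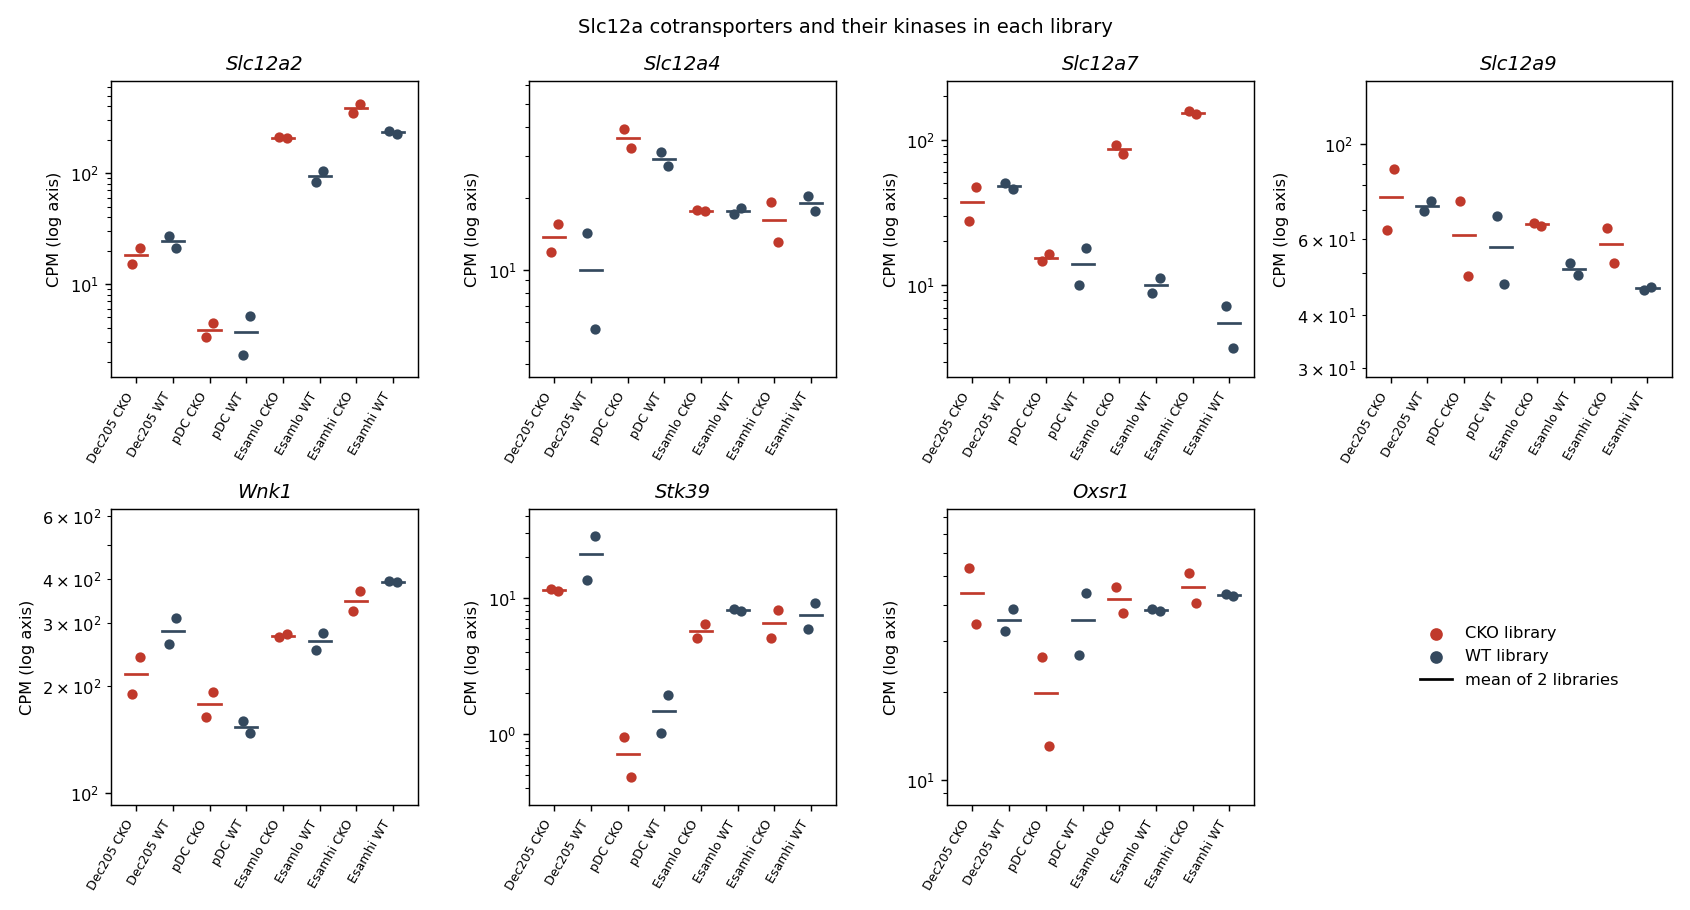
CPM of each gene (log axis) in every library of the 8 groups; points are libraries and lines the mean of 2 libraries. Slc12a7 in cDC2 CKO sits between 79.5 and 158 CPM, against 3.74 to 11.3 CPM in cDC2 WT, and Slc12a2 is highest in Esamhi.

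Several marker lists also differed between genotypes in cDC2, some higher and some lower in CKO. The lists given with values did not overlap between genotypes, which 2 libraries per group can show without a true difference. All 8 neutrophil markers were detected in the Esamhi and Esamlo groups, and they summed to 38.2 to 42.3 CPM in Esamhi CKO and 6.76 to 9.65 CPM in Esamhi WT, and to 40.5 to 42.2 CPM in Esamlo CKO and 22.3 to 23.2 CPM in Esamlo WT. Ly6g, which is on this list, was detected but low in the cDC2 CKO libraries, at 0.339 CPM or less. Its WT values and the values of the other neutrophil markers are not given by gene. The low Ly6g value therefore does not set aside the higher sums in CKO, and the presence of neutrophils was not tested. The 9 B cell markers, all detected, summed to 211 to 275 CPM in Esamhi CKO and 161 to 180.2 CPM in Esamhi WT, and to 319 to 776 CPM in Esamlo CKO and 212 to 292 CPM in Esamlo WT. The 7 platelet markers summed to 5.02 to 5.92 CPM in Esamhi CKO and 3.68 to 3.84 CPM in Esamhi WT, and to 6.26 to 10.6 CPM in Esamlo CKO and 2.52 to 2.84 CPM in Esamlo WT. Treml1 was at 0 in both cDC2 CKO groups, Gp1bb in Esamlo CKO, and Treml1 in Esamlo WT. In Esamhi the 7 monocyte markers summed to 42.5 to 45.9 CPM in CKO and 29.7 to 31.1 CPM in WT, the 7 erythroid markers with a row to 36.1 to 51.8 CPM in CKO and 17.8 to 29.1 CPM in WT, and the 8 T cell markers to 58.5 to 61.9 CPM in CKO and 68.3 to 70.1 CPM in WT. The 10 cDC1 markers summed to 894 to 913 CPM in Esamhi CKO and 1020 to 1234 CPM in Esamhi WT, and to 1198 to 1207 CPM in Esamlo CKO and 1009 to 1133 CPM in Esamlo WT. In Esamlo the 10 cDC2 markers summed to 3391 to 3449 CPM in CKO and 3795 to 3815 CPM in WT. The monocyte, erythroid and T cell lists overlapped between genotypes in Esamlo, and the NK cell and macrophage lists in both cDC2 subsets. The part of these lists in the Slc12a7 difference was not tested.

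The markers that separate the cDC2 subsets differed between genotypes as well, except the ESAM-low list in Esamlo. In Esamhi the 5 ESAM-low markers summed to 1128 to 1232 CPM in CKO and 568 to 592 CPM in WT, and the 5 ESAM-high markers to 931 to 969 CPM in CKO and 1269 to 1284 CPM in WT. In Esamlo the ESAM-high markers summed to 301 to 325 CPM in CKO and 390.5 to 394 CPM in WT. The ESAM-low markers overlapped there, at 3674 to 4268 CPM in CKO and 3756 to 4545 CPM in WT. All 5 markers of each list were detected in these groups. Their part in the Slc12a7 difference was not tested. In sorted bulk samples fewer cells of a type and less RNA per cell cannot be told apart.

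The genes around Slc12a7 that could be tested were not called. Of its 10 nearest RefSeq genes with a row in the table, 5 on each side, 5 had enough counts to be tested, and 0 were called by edgeR in any of the 4 CKO against WT comparisons, 0 at an unadjusted p under 0.05 and 0 by DESeq2. Among all tested genes edgeR called 6.78%, 1.85%, 0.551% and 0.877% in Dec205, pDC, Esamlo and Esamhi, so 0 of 5 is near these shares. The tested neighbours lay 83.2 kb or more away. Nkd2, Slc6a19os, Slc6a19 and Slc6a18, at 1.8, 23.2, 32.3 and 55.0 kb, were not tested. Clptm1l, 112.4 kb away, was at 183 and 173 CPM in Esamhi CKO, against 146 and 159.5 CPM in Esamhi WT (log2 fold change 0.22, adjusted p = 0.679). Brd9, which encodes a bromodomain subunit of a SWI/SNF chromatin remodeller and lies 121.0 kb away on the other side, was at 40.7 and 38.2 CPM in Esamhi CKO, against 41.9 and 39.1 CPM in Esamhi WT (log2 fold change -0.04, adjusted p = 1). The closest gene, Nkd2, starts 1.8 kb beyond the end of Slc12a7. It had 7 and 2 counts in Esamhi CKO, against 0 and 0 counts in Esamhi WT, and was too low to test. Tppp, 192.7 kb away and low in counts, had a log2 fold change of 4.45 in Esamlo (SE 2.62, adjusted p = 0.797). In Esamhi its log2 fold change was -0.79 (SE 1.76).

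Slc12a2, the inward Na-K-Cl cotransporter (chromosome 18, 57878512 to 57946821), was also higher in cDC2 CKO than in cDC2 WT in all libraries, by less. Esamlo had 210.1 and 209.8 CPM in CKO, against 82.7 and 106 CPM in WT, or 210 ± 0.155 CPM in CKO and 94.1 ± 16.1 CPM in WT (SD, n = 2 each). The difference was 2.23-fold (log2 1.16, SE 0.24), with an adjusted p of 0.0603 by edgeR, just over the 0.05 threshold. Esamhi had 348 and 424 CPM in CKO, against 239 and 227 CPM in WT, a 1.66-fold difference (log2 0.73, SE 0.24, adjusted p = 0.319). In neither subset did the CKO and WT libraries overlap. The share of all tested genes whose libraries separate in this way was not counted, so such separations are only described, here and below. By the edgeR test, 0.551% of all tested genes were called in Esamlo and 0.877% in Esamhi. Dec205 had 15.2 and 21.2 CPM in CKO, against 27.4 and 21.2 CPM in WT (log2 fold change -0.42, SE 0.26, adjusted p = 0.371). pDC had 3.33 and 4.45 CPM in CKO, against 2.30 and 5.13 CPM in WT (log2 fold change 0.06, SE 0.33, adjusted p = 1). A joint test for unequal CKO effects on Slc12a2 across the 4 subsets gave an adjusted p of 0.0989.

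The Slc12a2 call in Esamlo depended on the fit. DESeq2 called it (log2 1.16, adjusted p = 0.000551), as did the edgeR fit with the replicate number as a block (1.17, adjusted p = 0.0395) and the fit on the 4 Esamlo libraries alone (1.15, adjusted p = 0.00973). The fit on the 4 Esamhi libraries alone called the Esamhi difference (0.72, adjusted p = 0.00142). The main edgeR fit called neither difference. Leaving out 1 library gave log2 values from 0.995 to 1.34 in Esamlo and from 0.58 to 0.86 in Esamhi. The joint test passed with DESeq2 (adjusted p = 0.00182) and without pDC WT library 1 (adjusted p = 0.0163) or pDC WT library 2 (adjusted p = 0.033).

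**Figure D2:**
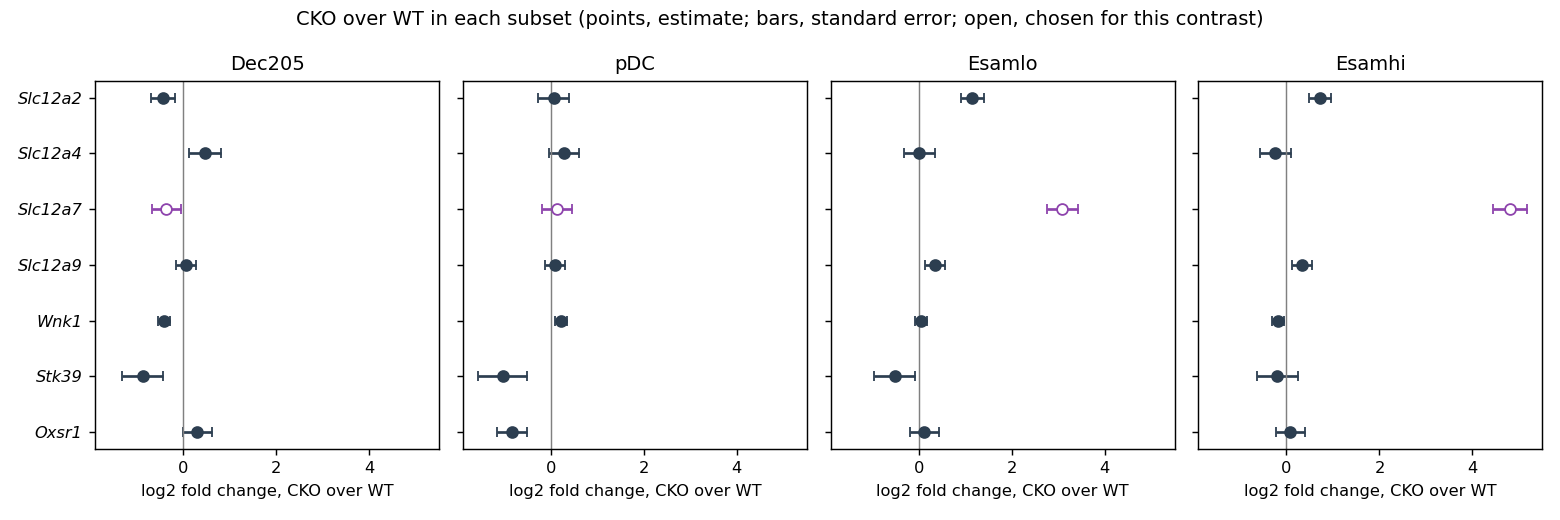
Log2 fold change of CKO over WT (x axis) for each gene (rows) in the 4 subsets. Points are edgeR estimates, bars their standard errors, and open points mark Slc12a7, chosen for this comparison. The Slc12a7 bars are not to be read as a test. Slc12a7 stands at 3.09 in Esamlo and 4.80 in Esamhi and Slc12a2 at 1.16 and 0.73, and the other genes lie between -1.03 and 0.47 in all 4 subsets.

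Counted over the 6 genes, edgeR called 0 in CKO against WT in each subset. Among all tested genes 6.78% were called in Dec205, 1.85% in pDC, 0.551% in Esamlo and, for Esamhi, 0.877%. At an unadjusted p under 0.05 there was 1 of 6 in each subset, Wnk1 in Dec205, Oxsr1 in pDC and Slc12a2 in both cDC2 subsets. Among all tested genes 22.7%, 10.7%, 7.9% and 7.48% were under this level in Dec205, pDC, Esamlo and Esamhi. DESeq2 called 1 each in Dec205 and Esamlo and 0 in pDC or Esamhi. Of all genes it called 843 higher and 864 lower in Dec205 and 369 higher and 180 lower in pDC. In Esamlo these numbers were 172 and 78, and in Esamhi 220 and 85. The joint test of different effects called 0 of 6, beside 2.44% of all genes, with 2 at an unadjusted p under 0.05 (Slc12a2 and Wnk1), beside 13.3% of all genes, and 1 by DESeq2 (Slc12a2). The median log2 fold change of the 6 genes was -0.17, 0.08, 0.09 and -0.05 in Dec205, pDC, Esamlo and Esamhi, beside 0, 0.0068, 0.0064 and 0 over all tested genes.

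Slc12a4, a K-Cl cotransporter found in most tissues (chromosome 8, 105943590 to 105966149), was highest in pDC, with 39.0 and 32.4 CPM in CKO, against 31.4 and 27.3 CPM in WT (log2 fold change 0.28, adjusted p = 0.906). It was nearly equal between genotypes in Esamlo, at 17.8 and 17.7 CPM in CKO, against 17.1 and 18.1 CPM in WT (log2 0.01, adjusted p = 1). Esamhi had 19.3 and 13.01 CPM in CKO, against 20.4 and 17.6 CPM in WT (log2 -0.24, adjusted p = 1). Dec205 had 11.8 and 15.6 CPM in CKO, against 14.3 and 5.61 CPM in WT (log2 fold change 0.47, adjusted p = 0.467), and its 2 WT libraries were the farthest apart of any pair of this gene. Without Dec205 WT library 1 the log2 fold change was 1.30 (adjusted p = 0.0202), and without Dec205 WT library 2 it was -0.06. Mir7074 lies within the Slc12a4 locus, and the kit does not mark strand.

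Slc12a9, a family member that is known to bind other cotransporters and whose transport is less well settled (chromosome 5, 137314558 to 137340070), was not called between genotypes in any subset. It was at 63.1 and 87.6 CPM in Dec205 CKO, against 69.6 and 73.7 CPM in Dec205 WT. pDC had 73.7 and 49.2 CPM in CKO, against 67.9 and 47.2 CPM in WT. In cDC2 the CKO libraries lay above the WT libraries, at 65.4 and 64.4 CPM in Esamlo CKO, against 52.7 and 49.5 CPM in Esamlo WT, and at 63.8 and 52.8 CPM in Esamhi CKO, against 45.6 and 46.4 CPM in Esamhi WT. The log2 fold change was 0.34 in both cDC2 subsets, with adjusted p of 0.81 in Esamlo and 0.928 in Esamhi, and 0.07 in Dec205 (adjusted p = 0.908) and 0.10 in pDC (adjusted p = 0.986).

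Wnk1, the kinase at the head of the pathway (chromosome 6, 119923969 to 120038695, with Mir706 inside its locus), was at 189 and 242 CPM in Dec205 CKO, against 263 and 310.0 CPM in Dec205 WT. Both CKO libraries lay below both WT libraries (log2 fold change -0.41, SE 0.13, adjusted p = 0.0783). This difference passed with DESeq2 (-0.41, adjusted p = 0.0272) and with the replicate block (-0.41, adjusted p = 0.0385). It also passed with a block of replicate numbers within genotype (-0.48, adjusted p = 0.0408). It was not called in the main fit or in the fit on the Dec205 libraries alone. Leaving out 1 Dec205 library gave values from -0.59, without CKO library 2, to -0.24. In Dec205 the 9 B cell markers summed to 362 to 646 CPM in CKO and 136 to 159.7 CPM in WT, and the 9 macrophage markers to 133 to 155 CPM in CKO and 232 to 263 CPM in WT, all of them detected. The 10 pDC markers summed to 575 to 697 CPM in Dec205 CKO and 411 to 428 CPM in Dec205 WT, and the 5 ESAM-low markers to 1156 to 1755 CPM in CKO and 950.2 to 1093 CPM in WT. The 7 monocyte markers summed to 112 to 129 CPM in Dec205 CKO and 79.5 to 88.3 CPM in Dec205 WT, with 5 of the 7 detected in each, and the 7 platelet markers to 16.7 to 19.4 CPM in CKO and 4.33 to 5.61 CPM in WT, with Treml1 at 0 in both. Their part in the Dec205 differences was not tested. pDC had 164 and 192 CPM in CKO, against 159 and 148 CPM in WT (log2 0.21, adjusted p = 0.642). Esamlo had 274 and 280.0 CPM in CKO, against 253 and 283 CPM in WT (log2 0.05, adjusted p = 0.996), and the groups overlapped. Esamhi had 325 and 369 CPM in CKO, against 394 and 391 CPM in WT (log2 -0.18, adjusted p = 0.979). Its joint test gave an adjusted p of 0.27.

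Stk39 and Oxsr1 are the closely related kinases that Wnk1 activates. Stk39 (chromosome 2, 68210445 to 68472108) was at 11.7 and 11.3 CPM in Dec205 CKO, against 13.7 and 28.5 CPM in Dec205 WT (log2 fold change -0.87, SE 0.44, adjusted p = 0.262). It was -1.29 without Dec205 WT library 1 and -0.25 without Dec205 WT library 2. Its log2 fold change was below 0 in pDC, Esamlo and Esamhi too (-1.03, -0.52 and -0.20), with adjusted p of 0.539, 0.92 and 1. In pDC it was near the limit of detection, at 0.951 and 0.482 CPM in CKO, against 1.01 and 1.93 CPM in WT. Oxsr1 (chromosome 9, 119238432 to 119322684) was at 26.5 and 13.1 CPM in pDC CKO, against 26.9 and 43.9 CPM in pDC WT (log2 fold change -0.84, SE 0.32, adjusted p = 0.329). Leaving out 1 pDC library gave values from -1.44, without CKO library 1, to -0.41, without CKO library 2. In Dec205, Esamlo and Esamhi its libraries ran from 32.3 to 53.3 CPM in both genotypes, with log2 fold changes of 0.31, 0.12 and 0.08 and adjusted p of 0.626, 0.995 and 1. The joint test gave an adjusted p of 0.89 for Stk39 and 0.482 for Oxsr1.

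Between subsets of WT cells, Slc12a2, Wnk1 and Stk39 had steps that passed the test. Slc12a2 averaged 233 ± 8.50 CPM in Esamhi WT, 94.1 ± 16.1 CPM in Esamlo WT, 24.3 ± 4.36 CPM in Dec205 WT and 3.71 ± 2.00 CPM in pDC WT (SD, n = 2 each). Each subset differed from the next in this order, by 1.31 on the log2 scale (adjusted p = 0.00604), 1.95 (adjusted p = 7.02e-05) and 2.70 (adjusted p = 7.58e-06). The Esamhi and Esamlo step was lost without Esamlo WT library 1 (adjusted p = 0.0723) or Esamhi WT library 1 (adjusted p = 0.0516). Wnk1 averaged 393 ± 2.06 CPM in Esamhi WT, 286 ± 33.6 CPM in Dec205 WT, 268 ± 20.97 CPM in Esamlo WT and 154 ± 8.27 CPM in pDC WT. The step between Dec205 and Esamlo was 0.10 (adjusted p = 0.605), and the steps above and below it passed (0.46, adjusted p = 0.0136; 0.80, adjusted p = 0.000231). The upper step was lost without Dec205 WT library 1 (adjusted p = 0.097), Esamhi WT library 1 (adjusted p = 0.0621) or Esamhi WT library 2 (adjusted p = 0.0536).

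Stk39 was highest in Dec205 WT and lowest in pDC WT. It averaged 21.1 ± 10.4 CPM in Dec205 WT, 8.25 ± 0.219 CPM in Esamlo WT, 7.60 ± 2.31 CPM in Esamhi WT and 1.47 ± 0.648 CPM in pDC WT. Dec205 was above Esamlo by 1.35 (adjusted p = 0.0319), Esamlo above Esamhi by 0.12 (adjusted p = 0.95) and Esamhi above pDC by 2.36 (adjusted p = 0.00132). The first of these steps was lost without Dec205 WT library 2 (0.73, adjusted p = 0.292), Esamlo WT library 1 (1.37, adjusted p = 0.116) or Esamlo WT library 2 (1.33, adjusted p = 0.139). For Slc12a4, Slc12a9 and Oxsr1 no neighbouring subsets in the order passed the test, although Slc12a4 was lower in Dec205 WT than in pDC WT by 1.57 (adjusted p = 0.00239) and than in Esamhi WT by 0.94 (adjusted p = 0.0486). Slc12a9 was higher in Dec205 WT than in Esamhi WT by 0.64 (adjusted p = 0.0351). Both calls between Dec205 and Esamhi were lost without Dec205 WT library 2, Esamhi WT library 1 or Esamhi WT library 2, with adjusted p from 0.0929 to 0.293 for Slc12a4 and from 0.117 to 0.144 for Slc12a9. The Slc12a9 call was also lost without Dec205 WT library 1 (adjusted p = 0.0766) and with library size alone (adjusted p = 0.0636).

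Of the 6 genes, 4 were called between Dec205 WT and pDC WT, where 47.6% of all genes were called, and 2 between Dec205 WT and Esamlo WT, where 34.2% were. Between Dec205 WT and Esamhi WT 5 were called, beside 37.4% of all genes. Between pDC WT and Esamlo WT 3 were called beside 45.7%, and between pDC WT and Esamhi WT 3 beside 47.1%. Between Esamlo WT and Esamhi WT 2 were called, Slc12a2 and Wnk1, beside 5.81% of all genes. The Wnk1 call (log2 -0.55 for Esamlo over Esamhi, adjusted p = 0.0244) was lost without any 1 library of these groups. Its log2 values in those fits ran from -0.63 to -0.48. Leaving out 1 library gave 1 to 3 calls between Dec205 and Esamhi, with 1 without Esamhi WT library 1, 2 without Esamhi WT library 2 or Dec205 WT library 2, and 3 without Dec205 WT library 1. Between Esamlo and Esamhi it gave 0 without library 1 of either WT group and 1 without library 2 of either. Between Dec205 and Esamlo it gave 1 without Dec205 WT library 2, Esamlo WT library 1 or Esamlo WT library 2.

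Levels of different genes are compared per kilobase of exon. In Esamhi CKO the order was Slc12a2 (59.2 CPM per kb), Slc12a7 (29.8), Wnk1 (28.8), Slc12a9 (17.5), Oxsr1 (9.86), Slc12a4 (4.23) and Stk39 (1.87 CPM per kb). In Esamhi WT Slc12a7 was last at 1.07 CPM per kb, after Slc12a2 at 35.8, Wnk1 at 32.5, Slc12a9 at 13.8, Oxsr1 at 9.29, Slc12a4 at 4.98 and Stk39 at 2.15 CPM per kb. Oxsr1 stood above Stk39 in all 8 groups, most widely in pDC, where they were at 4.27 and 0.203 CPM per kb in CKO and at 7.61 and 0.417 CPM per kb in WT.

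**Figure D3:**
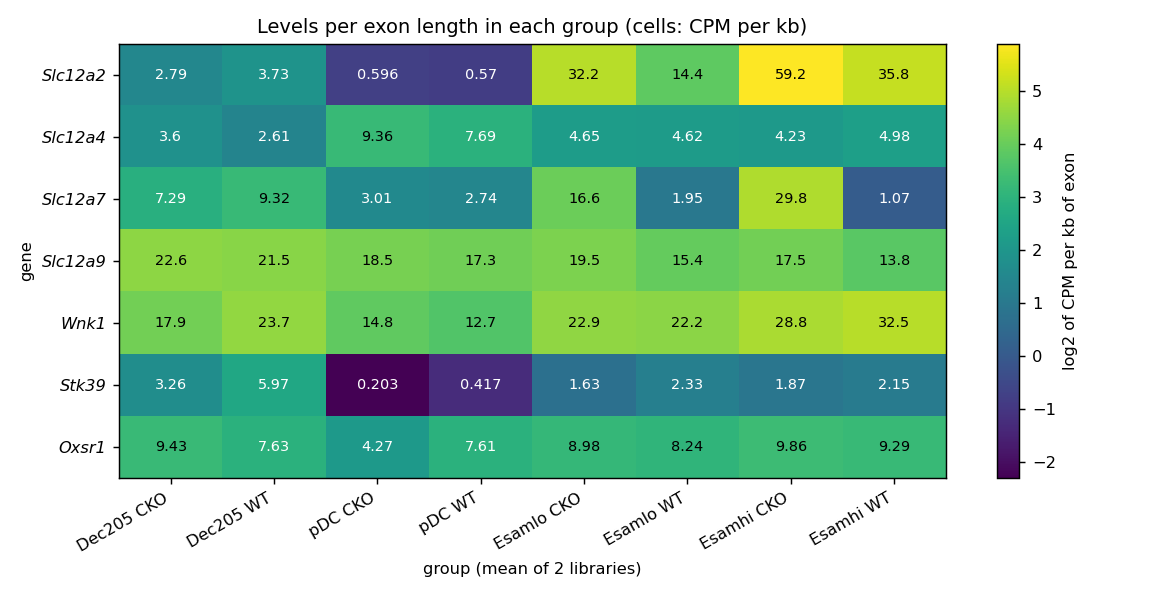
Mean level per kb of exon of each gene (rows) in each group (columns, mean of 2 libraries); the colour is the log2 of CPM per kb and the printed number the CPM per kb. Slc12a7 is 29.8 in Esamhi CKO and 1.07 in Esamhi WT, and Slc12a2 runs from 59.2 in Esamhi CKO to 0.57 in pDC WT.

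The rest of the pathway was read from lists of 64 further genes, of which 56 were tested. They were 5 other Slc12 genes, 16 other genes of the WNK pathway, 16 chloride channel genes, 9 potassium channel and sodium pump genes, 9 sodium-proton and bicarbonate exchanger genes and 9 genes of the osmotic response. In Dec205 0 were called higher and 4 lower in CKO, with 15 at an unadjusted p under 0.05 and 9 called by DESeq2. In pDC 1 was called higher and 0 lower (5 unadjusted, 3 by DESeq2). In Esamlo 0 were called in either direction (2 unadjusted, 1 by DESeq2), and in Esamhi 0 (7 unadjusted, 0 by DESeq2). Among all tested genes edgeR called 6.78%, 1.85%, 0.551% and 0.877% in Dec205, pDC, Esamlo and Esamhi, and 22.7%, 10.7%, 7.9% and 7.48% had an unadjusted p under 0.05, so the edgeR pathway counts in Dec205 were near the background. The DESeq2 counts are not to be set against these edgeR shares. Of all genes DESeq2 called 843 higher and 864 lower in Dec205 and 369 higher and 180 lower in pDC. It called 172 higher and 78 lower in Esamlo and 220 higher and 85 lower in Esamhi. The median log2 fold changes of the 56 genes were -0.04, 0.01, 0.09 and 0.04, beside 0, 0.0068, 0.0064 and 0 over all tested genes.

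Of the other Slc12 genes, Slc12a1 was at 0 in all 16 libraries. Slc12a3, the thiazide-sensitive Na-Cl cotransporter of the kidney, fell in Dec205 CKO, with 2 and 4 counts, against 55 and 32 counts in Dec205 WT (log2 fold change -4.11, SE 0.99, adjusted p = 0.0267). Among the Wnk genes Wnk2 was at 0 in every library, Wnk3 at 0.929 CPM or less and Wnk4 at 1.66 CPM or less. Wnk3 and Wnk4 were at 0 in Dec205 CKO, and of the 4 Wnk genes Wnk1 was the one with counts in every library.

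The other called genes were transporters and channels outside the family. Slc4a8, a sodium-driven chloride-bicarbonate exchanger, fell in Dec205 CKO to 67.6 and 78.1 CPM, against 134 and 148 CPM in Dec205 WT (log2 -0.95, SE 0.20, adjusted p = 0.0125), and its effect differed between subsets (joint test, adjusted p = 0.0229). Clic4, a chloride intracellular channel protein, fell in Dec205 CKO to 854 and 1095 CPM, against 1504 and 1389 CPM in Dec205 WT (log2 -0.57, adjusted p = 0.0205). Slc9a3r1, a scaffold protein of sodium-proton exchange, fell to 118 and 106 CPM in Dec205 CKO, against 153 and 151 CPM in Dec205 WT (log2 -0.44, adjusted p = 0.0178). Kcnk6, a two-pore potassium channel, rose in pDC CKO to 8.61 and 10.02 CPM, against 3.63 and 3.91 CPM in pDC WT (log2 1.30, SE 0.25, adjusted p = 0.0181). In pDC the 8 T cell markers summed to 368 to 398 CPM in CKO and 300.04 to 303 CPM in WT, and the 9 B cell markers to 186 to 262 CPM in CKO and 158 to 176 CPM in WT. Lists that were lower in pDC CKO were those of monocytes (3564 to 3735 CPM in CKO and 4292 to 4298 CPM in WT), macrophages (15.3 to 22.1 CPM in CKO and 24.8 to 33.8 CPM in WT), NK cells (2.30 to 2.54 CPM in CKO and 4.88 to 9.88 CPM in WT), ESAM-low cDC2 (741 to 788 CPM in CKO and 884 to 925 CPM in WT) and ESAM-high cDC2 (393 to 407 CPM in CKO and 475 to 598 CPM in WT). The pDC markers themselves summed to 15150 to 16432 CPM in pDC CKO and 14647 to 14668 CPM in pDC WT. The part of these lists in the Kcnk6 difference was not tested. Each of these 5 calls was lost without at least 1 library of its own comparison, and all 5 were lost when the subset was fitted alone, with adjusted p from 0.0557 for Slc4a8 to 0.261 for Slc12a3.

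Most like Slc12a7 in pattern over the 16 libraries, by the root mean square (RMS) difference of log2 CPM around each gene's mean, were Slc35f3 (0.95), Syngr3 (1.02), Plcb4 (1.03), Capn12 (1.05), Sema4a (1.05) and Armc7 (1.06). Slc12a7 itself varied by 1.57 around its mean. Slc35f3, Syngr3 and Capn12 were near the limit of detection, at most 1.70, 0.676 and 1.04 CPM in any library. Plcb4, a phospholipase C, was at 49.6 and 65.7 CPM in Esamhi CKO, against 3.46 and 3.58 CPM in Esamhi WT, and at 84.1 and 78.8 CPM in Esamlo CKO, against 4.09 and 4.51 CPM in Esamlo WT. In pDC Plcb4 was at 56.1 and 55.6 CPM in CKO, against 10.9 and 9.15 CPM in WT, where Slc12a7 overlapped.

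Sema4a, a semaphorin, was at 201 and 170.5 CPM in Esamhi CKO, against 30.4 and 32.0 CPM in Esamhi WT. Armc7 was at 62.7 and 62.5 CPM in Esamhi CKO, against 19.3 and 15.98 CPM in Esamhi WT. With a prior count of 0.5 in place of 2, or over the 8 group means, 4 of the 6 genes stayed among the nearest 6 each time. Of the other members, Slc12a9 ranked 384 in likeness to Slc12a7 among 13789 genes, Oxsr1 1400, Wnk1 2136, Stk39 9430, Slc12a4 9870 and Slc12a2 12666. Their RMS differences in this order were 1.45, 1.53, 1.55, 1.85, 1.90 and 2.50. A gene that did not vary would stand at 1.57, so the ranks of Slc12a9, Oxsr1 and Wnk1 show little likeness.

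**Figure D4:**
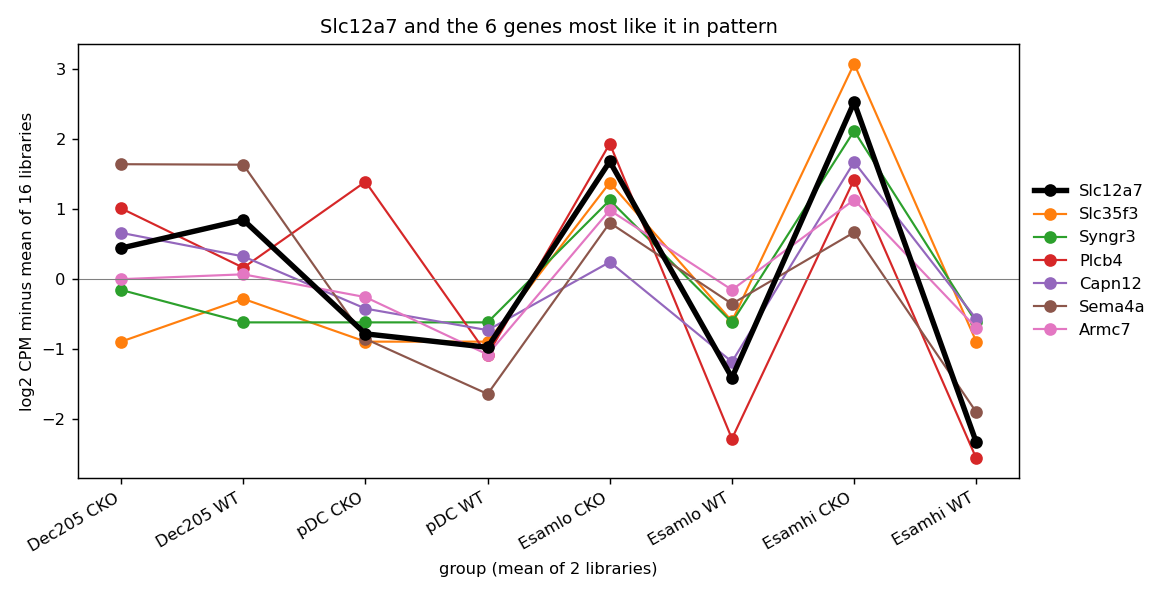
Log2 CPM minus the gene's mean over 16 libraries (y axis) in each group (mean of 2 libraries) for Slc12a7 (thick black line) and the 6 genes nearest to it; lines join the groups for reading only. All 7 lines are higher in Esamlo CKO and Esamhi CKO than in the WT groups of the same subsets, and Plcb4 is also high in pDC CKO. The 6 genes were picked for likeness to Slc12a7 in these same libraries, which favours a shared rise in cDC2 CKO.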

How the data were processed

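The authors deposited raw read counts, 1 table of 24116 rows with 16 columns that carry the titles of the samples. Per the submitters' processing notes, bcl2fastq, Trimmomatic 0.36 and Bowtie2 2.2.9 were used with mm10, and which counter, strand setting and annotation were used is not given in the sources used here. Per the labels' protocols, SMART-seq v4 cDNA was sequenced, a PCR-amplified kit without molecular identifiers.

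Rows passing filterByExpr (8 groups) were scaled by TMM (factors 0.913 to 1.10) and tested with edgeR 4.0.16 (R 4.3.3, limma 3.58.1): a two-sided quasi-likelihood F test, robust, with 1 coefficient per group and 8 residual degrees of freedom. P-values were Benjamini-Hochberg adjusted over 13790 genes, and a gene was called under 0.05. The fit was tested on simulated data. DESeq2 1.42.0 was an alternative. CPM used TMM-scaled sizes, log2 CPM a prior count of 2, and exon lengths GENCODE M21 transcripts paired with RefSeq. Positions and promoters were RefSeq's (GRCm38.p6, the build mm10 corresponds to). All 7 genes are named, pathway genes where called, or among the 4 smallest p of a list, neighbours by position, and the 6 genes of smallest RMS difference. Members and lists were chosen with earlier results of these data known. Replicate numbers did not pair CKO with WT libraries within a subset (correlations in the closing section). Values of some genes on the lists are not reported here.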

Additional observations from a re-analysis of the deposited data

How the results depend on the processing

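With 2 libraries per group, a p above the threshold does not show that values were equal. Depth limits Stk39 in pDC, which had 9 to 38 counts. Slc12a2 in pDC had more counts, but its 2 WT libraries were apart, at 43 and 101 counts. Fits without 1 library assume that the lone library left varies like the other groups. Slc12a7 kept its direction under every alternative in Dec205, Esamlo and Esamhi. It was chosen for a rise in CKO in cDC2 only, so its pattern over all the subsets was part of the choice. The kept direction in Dec205, Esamlo and Esamhi is therefore no independent support. Leaving out 1 library gave Slc12a7 log2 values from -0.79 to -0.013 in Dec205, from -0.23 to 0.61 in pDC, from 2.92 to 3.28 in Esamlo and from 4.40 to 5.35 in Esamhi. All genes called numbered 935, 255, 76 and 121 in Dec205, pDC, Esamlo and Esamhi. DESeq2 called 1707, 549, 250 and 305, fits of 1 subset 136, 91, 126 and 578, and fits without 1 library 585 to 1328, 176 to 281, 28 to 38 and 44 to 48. Of the 6 members, DESeq2 called 1 in Dec205, in Esamlo and in the joint test. Fits of 1 subset called 1 in Esamlo and 1 in Esamhi. Fits without 1 library called 0 to 1 in Dec205 and in the joint test, 0 to 0 elsewhere among the CKO comparisons, and 1 to 3, 1 to 3 and 0 to 1 between Dec205 and Esamlo, Dec205 and Esamhi, and Esamlo and Esamhi in WT. Of the 56 other pathway genes, DESeq2 called 9 in Dec205, 3 in pDC and 1 in Esamlo, fits of 1 subset 0 in Dec205, 0 in pDC and 3 in Esamhi, and fits without 1 library 2 to 6 in Dec205, 0 to 1 in pDC and 0 to 0 in Esamlo and in Esamhi. These pathway alternatives, and those for WT subsets that are not neighbours in the order of levels, were added after seeing the data.

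The replicate numbers were entered as a block although they do not pair CKO with WT: their same-numbered deviations correlated by -0.009, -0.033, 0.021 and -0.184 in Dec205, pDC, Esamlo and Esamhi. Between subsets of 1 genotype the correlations ran from -0.017 to 0.178, with 5 of 12 over 0.1. The replicate block called 1 of 6 members in Dec205 (Wnk1, -0.41) and 1 in Esamlo (Slc12a2, 1.17). A block within genotype called 1 in Dec205 (Wnk1, -0.48), and 1 other pathway gene in Esamlo and 1 in Esamhi. Crossing the Esamhi CKO numbers, chosen after seeing the data, gave 0 of 6 members in each subset and 925, 257, 84 and 118 genes in all.

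Signs turned for small values. Oxsr1 between Dec205 WT and pDC WT (0.0024) was -6e-04 with RLE factors, -0.24 with library size alone, -7e-04 with DESeq2 and -0.0095 with the block. Library size alone gave -0.0093 for Slc12a4 in Esamlo and -0.039 for Wnk1 between Dec205 WT and Esamlo WT. The block within genotype gave -0.14 for Slc12a4 and -0.012 for Wnk1 in Esamlo, and 0.0925 for Stk39 in Esamhi. Without 1 library, signs turned within these ranges for CKO against WT: Oxsr1 -0.039 to 0.59 in Dec205, -0.026 to 0.26 in Esamlo and -0.093 to 0.24 in Esamhi, Slc12a2 -0.40 to 0.75 in pDC, Slc12a4 -0.058 to 1.30 in Dec205, -0.0285 to 0.053 in Esamlo and -0.55 to 0.018 in Esamhi, Slc12a9 -0.18 to 0.30 in Dec205 and -0.23 to 0.39 in pDC, Stk39 -0.58 to 0.15 in Esamhi, and Wnk1 -0.027 to 0.13 in Esamlo. In WT they were Oxsr1 -0.29 to 0.40 (Dec205, pDC), Slc12a9 -0.13 to 0.41 (pDC, Esamlo), Stk39 -0.16 to 0.47 (Esamlo, Esamhi) and Wnk1 -0.034 to 0.20 (Dec205, Esamlo). The causes were not tested.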
